A study of Mus musculus with 28 samples.

Results

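Alpha-fetoprotein (Afp) separated the liver tumours of these mice into high and low ones, and the account below describes how 5 Afp-high and 5 Afp-low tumours differed across all other genes. The tumours were chosen by their own Afp level: the 11 tumours labelled Tu_F were ranked by Afp CPM (a gene's estimated counts for each 1000000 estimated counts of its library). The 5 highest were set against the 5 lowest, and the middle tumour was left out. These 10 tumours are 10 of 28 libraries in all. Another 10 libraries, peritumour tissue with the same sample codes, were compared in the groups that their tumours set; they took no part in the ranking.

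The series profiled hepatocellular carcinoma and peritumour tissue of mice by RNA sequencing. Every group used here carries the genotype c-Myc/Alb-cre transgenic, in which Cre is driven by the albumin promoter, so tumour and peritumour samples share it, as do Afp-high and Afp-low animals; non-transgenic tissue was not analysed here. The tumours carry the letters Tu_F (11 libraries) or Tu_M (3), and the peritumour samples Pe_F or Pe_M, letters that the labels do not spell out. A sample code shared by a tumour and a peritumour library was taken to mark 1 animal, and animals are called F1 to F11 after the replicate numbers in the labels; p-values measure the spread between these samples. High and low are groups set from measured Afp, not groups of the study.

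Afp is the main plasma protein of the fetal liver. It is made by fetal hepatoblasts, silenced around birth, and made again in regenerating liver and in many hepatocellular carcinomas, where it serves as a serum marker. Its gene lies beside those of albumin (Alb) and afamin (Afm) in the albumin family cluster. In mouse liver its postnatal silencing involves the repressors Zhx2, Zbtb20 and Zfhx3, and hepatocyte factors such as Foxa and Hnf4a bind its promoter and enhancers. Dlk1 and Gpc3 are other genes of the fetal liver that liver cancers can express.

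The promoters of Afp, of its neighbour Alb and of Dlk1 are shown because Afp set the groups, Alb lies beside it and differed by less than its error, and Dlk1 had the smallest p of all other genes. Each line is a RefSeq sequence of GRCm38.p6, plus strand, 5′ to 3′, from 250 bases before to 50 bases after the annotated start, at chr5:90490464-90490763 for Afp, chr5:90460620-90460919 for Alb and chr12:109452573-109452872 for Dlk1. Capitals mark TATAAA, the letters of a core promoter box, which was searched on both strands.
Afp: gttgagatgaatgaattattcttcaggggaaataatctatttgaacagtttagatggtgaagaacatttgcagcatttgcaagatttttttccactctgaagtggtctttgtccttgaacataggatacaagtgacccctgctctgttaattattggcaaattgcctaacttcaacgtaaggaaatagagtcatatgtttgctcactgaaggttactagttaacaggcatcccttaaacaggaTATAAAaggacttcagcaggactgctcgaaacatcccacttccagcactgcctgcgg
Alb: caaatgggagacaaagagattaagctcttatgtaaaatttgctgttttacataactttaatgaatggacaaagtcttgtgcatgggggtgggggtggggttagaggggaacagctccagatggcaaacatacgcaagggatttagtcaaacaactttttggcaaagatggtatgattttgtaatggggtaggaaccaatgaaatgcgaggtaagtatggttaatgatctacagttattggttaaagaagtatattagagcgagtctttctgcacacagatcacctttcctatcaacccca
Dlk1: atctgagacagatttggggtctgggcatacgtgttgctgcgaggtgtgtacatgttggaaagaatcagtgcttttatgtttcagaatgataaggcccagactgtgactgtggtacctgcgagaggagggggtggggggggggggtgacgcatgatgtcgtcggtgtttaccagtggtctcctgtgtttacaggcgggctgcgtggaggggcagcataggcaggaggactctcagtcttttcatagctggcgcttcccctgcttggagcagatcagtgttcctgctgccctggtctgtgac
TATAAA stood at bases 244 to 249 of the Afp window, which lies a few bases upstream of the start. The Alb and Dlk1 windows did not hold these letters. Among 32851 RefSeq mouse promoter windows of the same length, 13.6% held TATAAA. A match is a description of letters, not of binding.

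Afp in the high tumours was 12740.5 CPM in F5, 4153.4 in F3, 1562 in F6, 702 in F4 and 477 in F2. The low tumours held 37.2 CPM in F8, 16.2 in F10, 12.0 in F1, 10.0 in F9 and 6.52 in F11. The middle tumour, F7, held 120 CPM. These values chose the groups and are given with no test. The lowest of the high tumours was 3.96 times the middle one, the middle one was 3.24 times the highest of the low tumours, and the whole range spanned 1953-fold. On the TPM scale, which also allows for gene length, Afp reached 71.6% of the Alb level in F5, 13.7% in F3, 16.4% in F6, 2.84% in F4 and 3.40% in F2. In the low tumours it stood between 0.0461% and 0.130% of Alb, and at 0.755% in F7. The 3 Tu_M tumours held 13.5, 80.6 and 2.18 CPM and were not ranked.

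Peritumour Afp was measured in libraries that the ranking did not use. In the peritumour tissue of the high animals it was 2406.5 CPM in F5, 176 in F3, 508 in F6, 3.21 in F4 and 343 in F2. In that of the low animals it was 9.14 CPM in F8, 48.3 in F10, 159 in F1, 8.55 in F9 and 33.8 in F11. The groups overlapped, with F4 below all low animals and F1 close to F3. The mean difference of 2.71 on the log2(CPM + 1) scale did not pass an exact two-sided permutation test (p = 0.151, smallest possible 0.00794, n = 5 and 5). Without F4 the difference was 4.10 and the exact p was 0.0159. Leaving out any other single animal gave an exact p of 0.111 to 0.294. Tumour Afp exceeded that of the same animal's peritumour tissue in 5 of 5 high animals and in 2 of 5 low animals. Tumour Afp chose the groups, so this split was in part set by the ranking and is given with no test.

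**Figure D1:**
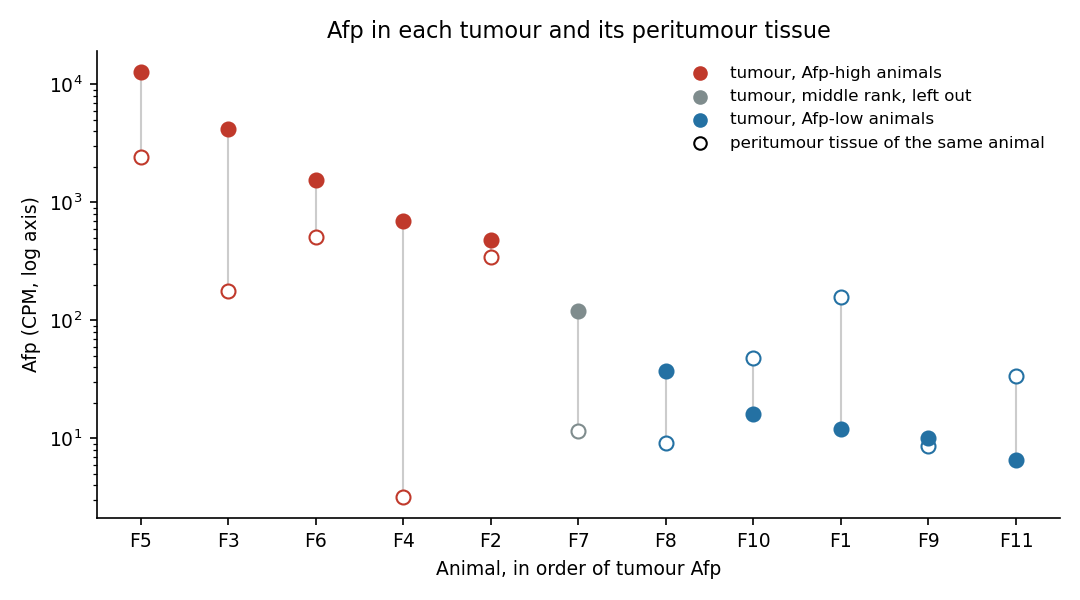
Afp level in CPM on a log axis for the 11 Tu_F animals, ordered by tumour Afp, with tumour libraries as filled points and peritumour libraries of the same animal as open points. Tumour Afp runs from 12740.5 CPM in F5 to 6.52 CPM in F11, while peritumour values of the 2 groups overlap.

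Library totals ranged from 14777567 to 17576921 estimated counts over the 28 libraries, so depth was similar throughout. Genes with an estimated count above 0 numbered 15844 ± 367 per high tumour and 15273 ± 121 per low tumour (SD, n = 5 each). The two-sided exact permutation p was 0.0159, for a measure chosen after its values were seen. F2, F5 and F6 are the high animals in which summed granulocyte precursor markers exceeded 100 CPM in both tissues (132 and 278 CPM in tumour and peritumour tissue of F2, 203 and 329 in F5, 296 and 177 in F6); F4 had 224 and 17.1 CPM and F3 18.9 and 21.8. Without F2, F5 and F6 the difference in genes was 363 (exact p = 0.0952, smallest possible 0.0476). Defining hepatocyte markers (Alb, Ttr, Apoa1, Tat, Hnf4a) were present in every tumour, with a summed level of 17063 to 37798 CPM in high and 19385 to 41191 CPM in low tumours. The pancreas markers Cpa1 and Pnlip were at 0 in all 10 tumours. A further pancreas marker, Cela1, was detected in every tumour, at 2.68 to 8.12 CPM in high and 3.17 to 5.77 CPM in low tumours. Sample codes have 2 forms, and F1, F2 and F3 share one of them (2 high and 1 low); no source used here says whether the form marks a batch. In bulk tissue, a different share of a cell type and a different amount of RNA per cell cannot be told apart.

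Across 13154 genes other than Afp, none passed an adjusted p of 0.05 in the tumours (edgeR's quasi-likelihood test with Benjamini-Hochberg adjustment), and the smallest adjusted p was 0.0545. At an unadjusted p under 0.05, 1313 genes (9.98%) were higher and 643 (4.89%) lower in Afp-high tumours. That split moved with the scaling, to 2243 higher and 256 lower with library size alone. The median log2 fold change of all genes was 0.065, and 0.28 with library size alone, so differences are best read against that median. The 5 high and 5 low libraries did not overlap for 280 genes that were higher (2.13%) and 41 that were lower (0.312%). The 280 had a median log2 fold change of 1.12, and 64 of them exceeded 2, whereas the 41 had a median of -0.89. DESeq2 called 433 genes higher and 121 lower. Leaving out single tumours, edgeR called 77 higher and 4 lower without F4, 15 higher without F3, 3 without F2 and 1 without F8. With Afp itself counted in the adjustment, 6 genes passed edgeR's test, all higher, namely Dlk1, Cdr2, F2rl1, Dmtn, Cldn7 and Cux2. No gene below is therefore described as changed; the values are given as measured.

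Among genes with a mean of at least 10 CPM over the 10 tumours, the 5 with the smallest p on the higher side were Dlk1, F2rl1, Cldn7, A2m and Cdhr2. Cdr2, Dmtn and Cux2 had p-values as small but lay below that mean; Cdr2 was at 5.57 to 13.5 CPM in high and 1.52 to 2.39 CPM in low tumours (log2 fold change 2.11 ± 0.29, edgeR adjusted p = 0.0545). Dlk1, on chromosome 12 (109452823 to 109463336, GRCm38), encodes a Notch-ligand-like membrane protein of fetal hepatoblasts and is expressed from the paternal allele. It stood at 320 CPM in F5, 99.1 in F3, 124 in F6, 47.7 in F4 and 43.4 in F2. In the low tumours it was 2.88 CPM in F8, 0.114 in F10, 0.330 in F1, 0.502 in F9 and 0.0588 in F11, and it was 0 in the middle tumour F7 and in the 3 Tu_M tumours. Every high tumour was above every low one by a factor of more than 10. The log2 fold change was 7.14 ± 0.96 (SE, n = 5 and 5; edgeR adjusted p = 0.0545). Leaving out single tumours gave 6.45 to 8.75, and the test was passed without F2, F3, F4 or F8.

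F2rl1, the protease-activated receptor 2, was at 45.2, 25.2, 8.32, 5.30 and 39.1 CPM in F5, F3, F6, F4 and F2. In the low tumours F8, F10, F1, F9 and F11 it was at 1.53, 1.19, 0.990, 2.38 and 0.823 CPM, so the groups did not overlap. Its log2 fold change was 3.89 ± 0.56 (SE, n = 5 and 5; edgeR adjusted p = 0.0545), and F7 held 3.12 CPM. Claudin 7 (Cldn7), a tight junction protein of biliary and other epithelia, was at 59.6, 25.5, 13.4, 5.10 and 97.6 CPM in the same order of high tumours. Low tumours held 1.06 to 2.17 CPM of Cldn7 and F7 1.47, giving a log2 fold change of 4.31 ± 0.66 (edgeR adjusted p = 0.057). Both genes were lowest, among the high tumours, in F4.

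A2m, the protease inhibitor alpha-2-macroglobulin, was at 481 CPM in F5, 83.3 in F3, 121 in F6, 69.8 in F4 and 31.7 in F2. The low tumours held 2.24 to 10.5 CPM, while the middle tumour F7, at 96.7, lay within the high range. Its log2 fold change was 4.56 ± 0.76 (SE, n = 5 and 5; edgeR adjusted p = 0.085). Cdhr2, a protocadherin of the epithelial brush border, was at 38.4, 33.9, 27.3, 14.0 and 3.66 CPM in the order of falling Afp. The low tumours held 0.114 to 1.51 CPM and F7 0.353. The log2 fold change of Cdhr2 was 4.75 ± 0.80 (edgeR adjusted p = 0.085). Cdhr2 thus followed the order of Afp within the high group, which the other 4 genes did not.

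With the same minimum of 10 CPM, the genes with the smallest p on the lower side were Cnnm4, Rnf24, Emp2, Aifm2 and Them6, and their differences were smaller. Aifm2, also called FSP1, an oxidoreductase that protects membranes from lipid peroxidation, was at 23.2, 39.0, 27.8, 39.3 and 28.0 CPM in the high tumours F5, F3, F6, F4 and F2. It was at 57.2, 65.7, 66.9, 44.2 and 63.5 CPM in the low tumours F8, F10, F1, F9 and F11, with no overlap and F7 at 42.8. The log2 fold change was -1.12 ± 0.23 (SE, n = 5 and 5; edgeR adjusted p = 0.125). Emp2, an epithelial membrane protein, was at 33.2 to 77.3 CPM in high and 87.4 to 182 CPM in low tumours, a log2 fold change of -1.37 ± 0.28 (edgeR adjusted p = 0.125). Cnnm4, a transporter of magnesium, differed by -0.96 ± 0.20 and Rnf24 by -1.44 ± 0.30 on the log2 scale (edgeR adjusted p = 0.125 for each). Them6 differed by -0.81 ± 0.18, with 19.8 to 28.5 CPM in high and 30.3 to 37.8 CPM in low tumours (edgeR adjusted p = 0.142).

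**Figure D2:**
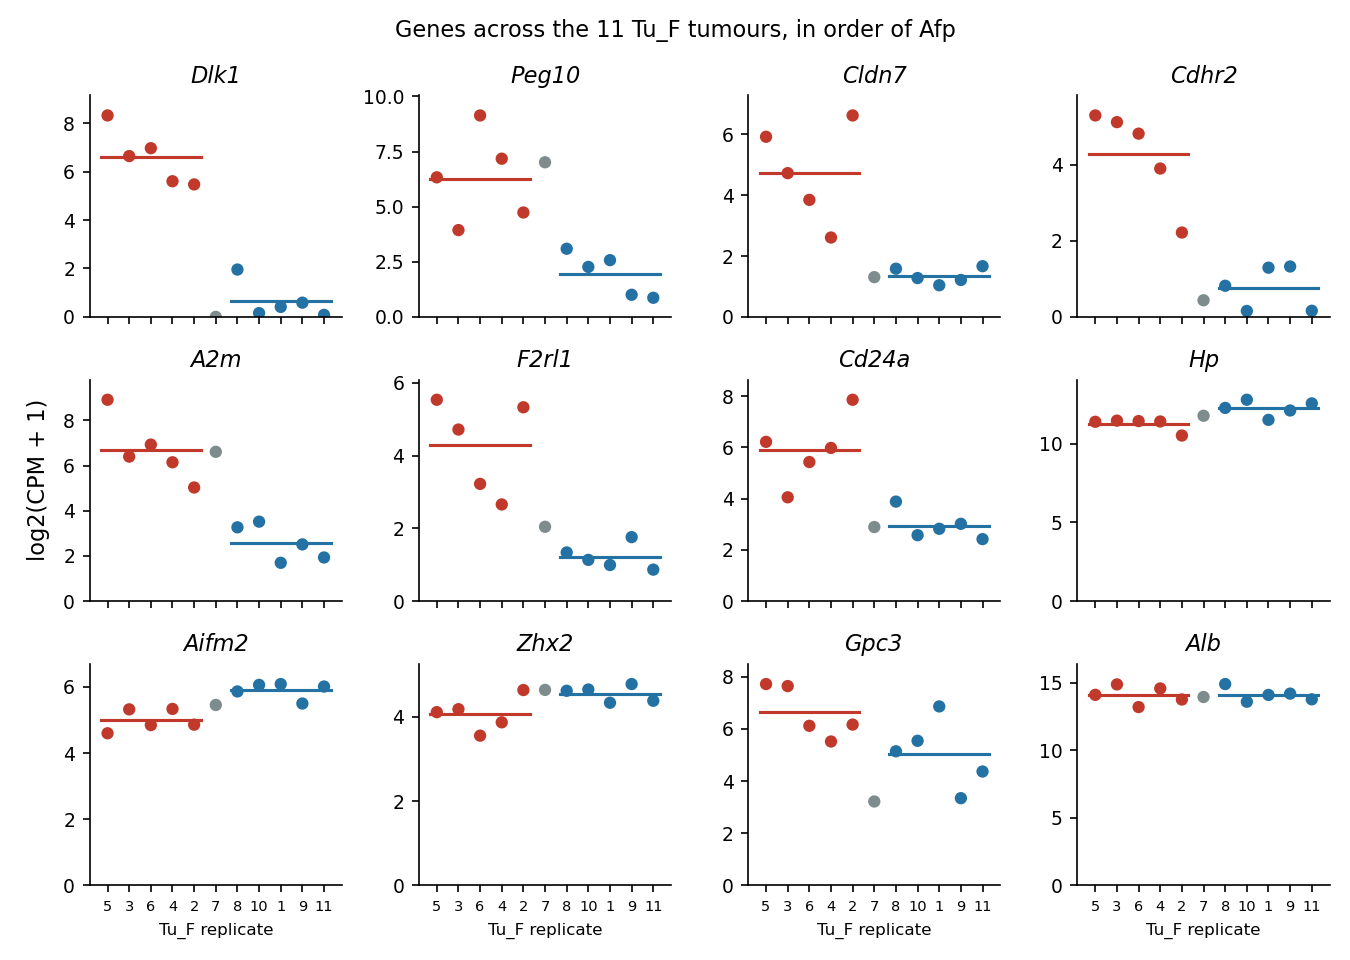
Level of 12 genes, 1 panel each, as log2(CPM + 1) in the Afp-high (red), middle (grey) and Afp-low (blue) tumours in order of Afp, with a line at each group mean (n = 5 and 5). Dlk1, Peg10, Cldn7, Cdhr2, A2m and F2rl1 do not overlap between the groups, whereas Alb and Gpc3 do.

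Ranked over all 11 Tu_F tumours, the genes most like Afp by Spearman's rho of CPM were Papln (0.92), a proteoglycan-like matrix protein, Lrp6 (0.90), a Wnt co-receptor, and F2rl1, A2m and Casd1 (0.89 each). The most opposite were Osbpl2 (-0.89), a lipid-binding protein, and Car14, Ociad2, Aifm2 and Glo1 (-0.85 each). These rhos are a description over 11 tumours whose Afp values also chose the groups, with no p.

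Alb differed by -0.15 ± 0.37 on the log2 scale (SE, n = 5 and 5; edgeR adjusted p = 0.851), and of 3 tested neighbours (Alb, Afm, Gc) none had an unadjusted p under 0.05; the sign for Alb changed under some alternatives. Of 20 tested transcription factors that act on Afp, 0 were higher and 1 was lower at an unadjusted p under 0.05, a share near the 4.89% of all genes, and their median log2 fold change was -0.02 against 0.065 for all genes. The 1 lower factor was Zhx2, which was at 16.2, 17.1, 10.7, 13.6 and 23.7 CPM in F5, F3, F6, F4 and F2. Low tumours held 23.4, 24.0, 19.1, 26.3 and 19.7 CPM of Zhx2 in F8, F10, F1, F9 and F11, and F7 held 23.8. F5, F3, F6 and F4 lay below every low tumour and F2 inside the low range; the log2 fold change was -0.70 ± 0.20 (edgeR adjusted p = 0.194). Zbtb20 differed by 0.01 ± 0.56, with a sign that changed under some alternatives, Zfhx3 by 0.63 ± 0.30 and Hnf4a by -0.39 ± 0.29 on the log2 scale (edgeR adjusted p for Zfhx3 0.341 and for Hnf4a 0.495). Onecut1, a liver-enriched factor of hepatoblasts, was at 3.85 to 9.94 CPM in high and 0.470 to 3.83 CPM in low tumours. The groups did not overlap, but the lowest high tumour was barely above the highest low one. Its log2 fold change was 1.02 ± 0.48 (edgeR adjusted p = 0.341). Onecut1 was the 1 of 20 tested factors without overlap on the higher side, against 2.13% of all genes. Of 7 tested genes under Zhx2 control in mouse liver, none was at an unadjusted p under 0.05 in either direction, and their median was 0.09. Myc, the gene of which the mice carry a transgene, differed by -0.01 ± 0.29 (edgeR adjusted p = 0.989), with a sign that changed under some alternatives, and the proliferation marker Mki67 by 1.66 ± 0.72 (edgeR adjusted p = 0.317).

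Fetal and oncofetal genes were high on average in the Afp-high tumours, but unevenly. Of 26 tested genes of the list, 0 passed. At an unadjusted p under 0.05, 13 were higher and 1 (Ly6d) lower, against 9.98% and 4.89% of all genes. The median log2 fold change was 1.06. Without F2, F5 and F6 that median was 0.44. Besides Dlk1, the groups did not overlap for Cd24a, Peg10, Peg3 and Mest, against 2.13% of all genes without overlap on the higher side. The examples in the lists were taken by smallest p after values were seen.

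Cd24a, a glycoprotein of progenitor cells, was at 73.2, 15.6, 42.0, 61.9 and 230 CPM in F5, F3, F6, F4 and F2 and at 4.35 to 13.7 CPM in low tumours, a log2 fold change of 3.24 ± 0.57 (edgeR adjusted p = 0.093). Peg10, a paternally expressed gene of placenta and fetal liver, was at 79.6, 14.3, 563, 144 and 25.7 CPM in the same order. Low tumours held 0.823 to 7.52 CPM of Peg10, but F7 held 128, inside the high range (log2 fold change 5.40 ± 1.07, edgeR adjusted p = 0.125). Peg3, another paternally expressed gene, was at 148 to 298 CPM in high tumours. It was at 22.0, 8.25, 115, 35.3 and 1.47 CPM in the low tumours F8, F10, F1, F9 and F11 and 0.825 in F7 (log2 fold change 2.33 ± 0.77, edgeR adjusted p = 0.233). Cdkn1c, a cyclin-dependent kinase inhibitor, was at 107, 53.5, 89.9, 3.63 and 30.6 CPM, with F4 inside the low range of 1.19 to 6.29 (log2 fold change 3.70 ± 0.74, edgeR adjusted p = 0.125). The high tumours thus differed in how much of each of these fetal genes they held.

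Gpc3, a cell surface proteoglycan used as a liver cancer marker, was at 209, 198, 68.4, 44.8 and 70.8 CPM in high tumours. Low tumours held 34.3, 45.6, 115, 9.16 and 19.6 CPM, so the groups overlapped through F1 and F10 (log2 fold change 1.22 ± 0.61, edgeR adjusted p = 0.363). Igf2, the fetal growth factor, differed by -0.03 ± 0.52 (edgeR adjusted p = 0.981), and its sign changed under some alternatives. Igf2bp3, an oncofetal RNA-binding protein, was at 60.5 to 128 CPM in high and 55.2 to 112 CPM in low tumours. Afp-high tumours were therefore not higher for every fetal gene tested.

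Epithelial genes of bile duct and progenitor type were the list with the highest median outside the blood cell lists. Of 17 tested members, 10 were higher and 0 lower at an unadjusted p under 0.05, against 9.98% and 4.89% of all genes. The median log2 fold change was 1.52. The values were carried by some tumours more than others, above all by F2. Krt19, a bile duct keratin, was at 799 CPM in F2, at 17.9, 7.85, 39.0 and 2.15 in F5, F3, F6 and F4, and at 2.18 to 7.76 in low tumours (log2 fold change 4.69 ± 1.34, edgeR adjusted p = 0.196). Without F2, F5 and F6 its log2 fold change was -0.18. Krt7, another such keratin, was at 256 CPM in F2, 22.5 in F5, 22.0 in F3, 14.1 in F6 and 1.88 in F4, against 0.990 to 4.17 in low tumours. Cldn4, a claudin, was at 46.5, 48.8, 3.25, 0.537 and 52.5 CPM in F5, F3, F6, F4 and F2 and at 0.251 to 1.12 in low tumours (log2 fold change 5.41 ± 1.06, edgeR adjusted p = 0.125). F4 lay in the range of the low tumours for Krt7 and Cldn4 and just below that range for Krt19. Sox9, a ductal transcription factor, differed by -0.25 ± 0.43. The list's median was 0.44 at the lowest when single tumours were left out, and 0.43 without F2, F5 and F6. The summed level of the 5 defining cholangiocyte markers was 77.1 to 1928 CPM in high and 40.2 to 80.6 CPM in low tumours; its part in the other differences was not tested. Muc13, a mucin, differed by -0.41 ± 1.19 (edgeR adjusted p = 0.869), and its sign changed under some alternatives.

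Matrix, YAP and immune cell lists had medians above that of all genes in tumours, to a degree that depended on which animals were included. Of 20 tested stellate cell and fibroblast markers, 9 were higher and 0 lower at an unadjusted p under 0.05, with a median log2 fold change of 0.54. The shares of all genes at that p were 9.98% higher and 4.89% lower. Col1a1, the main fibrillar collagen chain, was at 567, 223, 142, 88.2 and 413 CPM in F5, F3, F6, F4 and F2 and at 53.4 to 113 CPM in low tumours (log2 fold change 1.53 ± 0.43, edgeR adjusted p = 0.196). Lox, the collagen crosslinking enzyme, did not overlap, but F4 at 2.42 CPM was barely above the highest low tumour at 2.41. Of 15 tested YAP target genes, 8 were higher and 0 lower, with a median of 0.66. The summed level of 5 defining stellate markers was 241 to 719 CPM in high and 168 to 237 CPM in low tumours. Of 15 tested monocyte and macrophage markers, all 15 had a positive log2 fold change in tumours and 6 were higher at an unadjusted p under 0.05 (median 0.88); in peritumour tissue the median was -0.31. For T and NK cell markers the median was 0.54 over 13 tested in tumours, where 2 were higher and 0 lower. In peritumour tissue it was -0.71 over 14, where 5 were lower, against 3.49% of all genes. In animals with the second form of sample code alone, the tumour medians were 0.18 for stellate, 0.16 for YAP, 0.13 for monocyte and -0.01 for T and NK genes. Leaving out single tumours gave 0.36 (without F2) to 0.93 for stellate, 0.46 (without F2) to 0.71 for YAP, 0.55 (without F2) to 1.12 for monocyte and 0.29 (without F3) to 0.91 for T and NK genes. The summed level of 5 T cell markers was 5.26 to 29.5 CPM in high and 5.02 to 14.0 CPM in low tumours.

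Lists of mature hepatocyte function had medians below that of all genes in Afp-high tumours, by less than 1 log2 unit, and none of their genes passed the test. At an unadjusted p under 0.05, 7 of 21 tested urea cycle and amino acid breakdown genes were lower and 0 higher. Those shares were 4.89% and 9.98% over all genes. Their median log2 fold change was -0.59. The median was -0.61 over 24 bile acid, P450 and phase II genes (2 lower, 0 higher, against 4.89% of all genes lower). It was -0.59 over 16 fatty acid oxidation genes (4 lower, 0 higher) and -0.61 over 19 acute phase genes (6 lower, 0 higher). In peritumour tissue 6 of 19 acute phase genes were also lower and 0 higher (median -0.43), against 3.49% of all genes lower. Ass1, a urea cycle enzyme, was at 1338, 3375, 3136, 3252 and 1840 CPM in F5, F3, F6, F4 and F2 and at 3116 to 6786 in low tumours, overlapping, and differed by -0.99 ± 0.37 (edgeR adjusted p = 0.271). Haptoglobin (Hp), an acute phase plasma protein, did not overlap. It was at 2703, 2845, 2790, 2741 and 1476 CPM in F5, F3, F6, F4 and F2 and at 4986, 7138, 2945, 4447 and 6078 CPM in F8, F10, F1, F9 and F11 (log2 fold change -1.22 ± 0.32). Without F2, F5 and F6 the median was -0.12 for the urea cycle list and 0.09 for the bile acid and P450 list, and -0.87 for fatty acid oxidation. F5 held the lowest value of Ass1 and of Cps1, the first enzyme of the urea cycle, at 1338 and 890 CPM.

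Of 16 tested NRF2 and glutathione genes, 7 were lower and 0 higher at an unadjusted p under 0.05, with a median log2 fold change of -0.74. The shares over all genes were 4.89% lower and 9.98% higher. The list's median was -0.50 in peritumour tissue of the same animals, and -0.37 in tumours without F2, F5 and F6. Gclc, the catalytic subunit of the enzyme that limits glutathione synthesis, was at 122, 355, 187, 255 and 186 CPM in F5, F3, F6, F4 and F2. Low tumours held 285 to 418 CPM of Gclc, and F3 lay among them (log2 fold change -0.84 ± 0.29, edgeR adjusted p = 0.25). Abcc3, an efflux transporter, differed by -1.21 ± 0.38 (edgeR adjusted p = 0.218). Of 23 tested genes of lipid and cholesterol synthesis, 4 were lower and 0 higher, with a median of -0.08. Fasn, the fatty acid synthase, was at 630 to 850 CPM in high and 897 to 1602 CPM in low tumours, without overlap (log2 fold change -0.82 ± 0.23, edgeR adjusted p = 0.196).

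**Figure D3:**
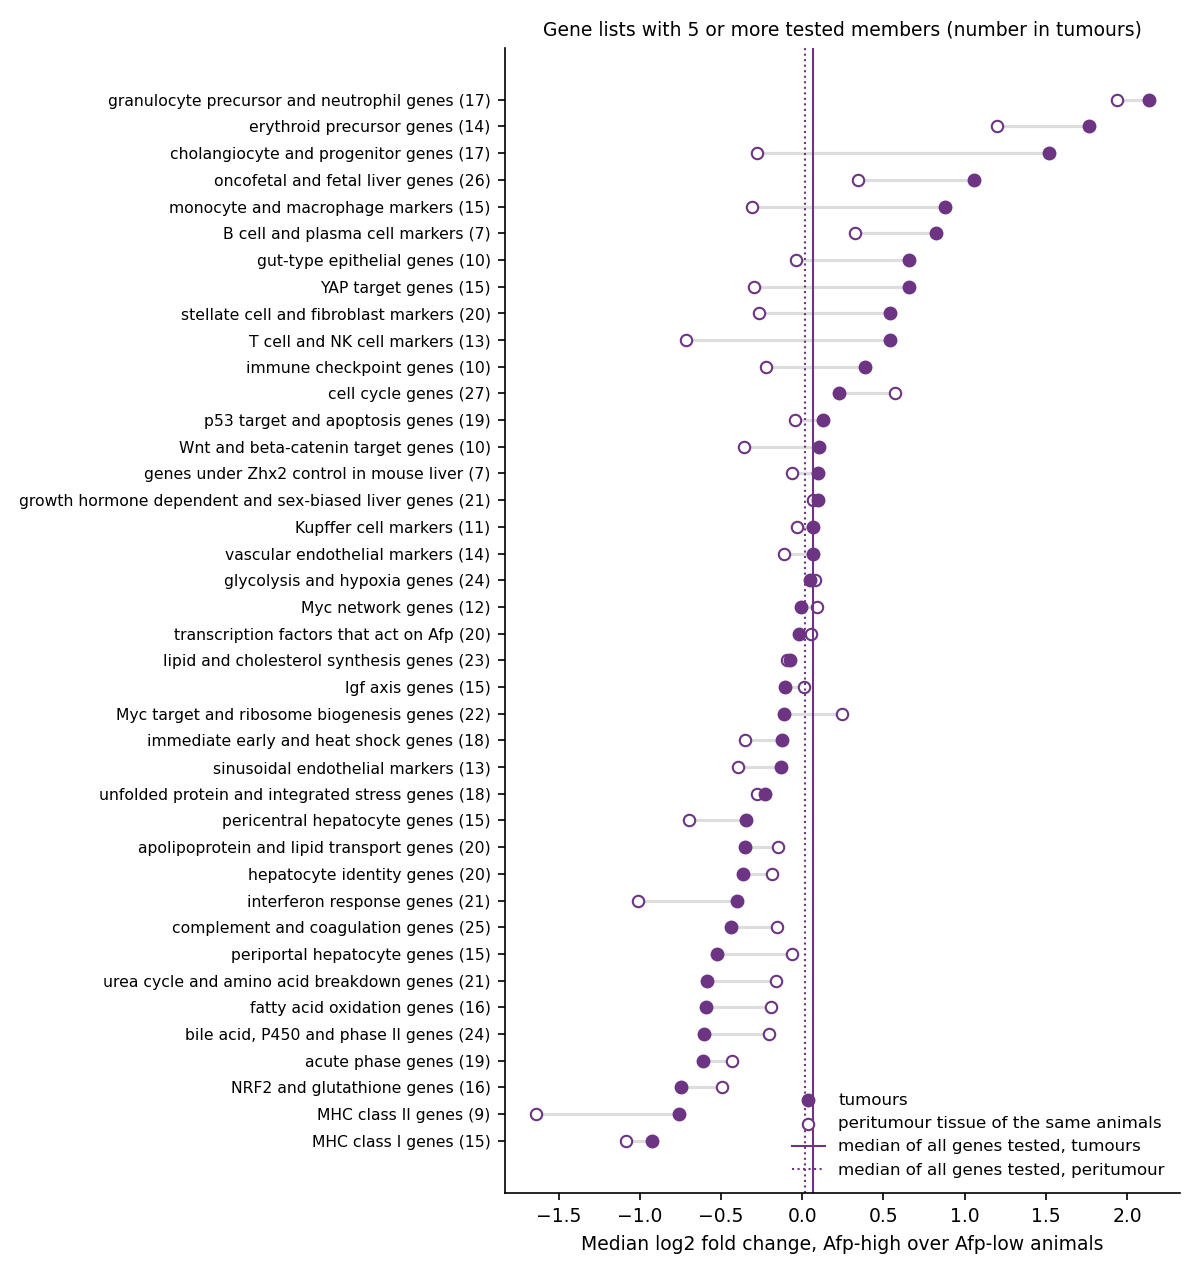
Median log2 fold change, Afp-high minus Afp-low, of each gene list with 5 or more tested members, in tumours (filled) and in peritumour tissue of the same animals (open); the lines mark the medians of all genes, 0.065 and 0.019. Granulocyte and erythroid lists are far to the right in both tissues, the cholangiocyte and progenitor list in tumours but at -0.28 in peritumour tissue.

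Antigen presentation and interferon lists had medians below that of all genes in both tissues, with 0 genes past the test, and the low group was uneven. Of 15 tested MHC class I genes, 8 were lower and 0 higher in tumours at an unadjusted p under 0.05 (median log2 fold change -0.93). In peritumour tissue 13 were lower and 0 higher (median -1.09). Over all genes, 4.89% were lower and 9.98% higher in tumours, and 3.49% and 3.42% in peritumour tissue. Tap1, the peptide transporter, was at 216 CPM in F9 and 176 in F11, whereas the low tumours F8, F10 and F1 were at 27.3, 41.4 and 36.8, within the high range of 22.1 to 49.4. F7 held 169 CPM of Tap1. The log2 fold change of Tap1 was -1.69 ± 0.57 (edgeR adjusted p = 0.244). The high Tap1 values of the low group thus came from F9 and F11. Of 21 tested interferon response genes, 4 were lower and 1 higher in tumours (median -0.40), and of 9 MHC class II genes, 2 and 0 (median -0.76). The class II median was 0.11 without F2, F4, F5 and F6, and -1.11 (without F3) to -0.31 (without F11) when single tumours were left out. MHC class I genes of the H2 family share reads, so the values of single members are uncertain.

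In the peritumour tissue of the same animals, 0 of 13140 genes passed (edgeR, smallest adjusted p = 0.69). At an unadjusted p under 0.05, 450 genes (3.42%) were higher and 459 (3.49%) lower, 6.92% in all, and the groups did not overlap for 73 (0.556%) and 14 (0.107%). DESeq2 called 33 higher and 18 lower. The genes with the smallest p among the lower ones included Irf1, Irgm2, Tgtp2 and Tifa, of which Irf1, Irgm2 and Tgtp2 are interferon-induced. Irf1, an interferon regulatory factor, was at 23.5 to 38.7 and 34.9 to 174 CPM, a log2 fold change of -1.63 ± 0.39. In the low animals it was at 174 CPM in F9 and 138 in F11 and at 54.9, 34.9 and 55.8 in F1, F8 and F10. Tgtp2 was at 402 and 476 CPM in F9 and F11 and at 67.1, 23.2 and 31.8 in F1, F8 and F10, and Irgm2 was at 346 CPM in F11, still higher in F9, and at 180, 96.9 and 134 in F1, F8 and F10. The low animals F9 and F11 thus stood apart for all 3 genes, as they did for Tap1 in tumours. Irgm2, Tgtp2 and Tifa differed by -1.86 ± 0.45, -3.57 ± 0.88 and -1.23 ± 0.31 on the log2 scale (edgeR adjusted p = 0.69 for each, as for Irf1). Tgtp2 has a near-identical copy, so its reads are uncertain. Of 21 tested interferon response genes, 12 were lower and 0 higher at an unadjusted p under 0.05 (median -1.01), and of 10 MHC class II genes, 8 and 0 (median -1.64).

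The peritumour genes with the smallest p among the higher ones were Rad54b, Serpina1e, Clspn, Ngp and Slc4a1. Rad54b, a DNA repair protein, was at 11.7 to 25.3 CPM in high and 5.35 to 8.03 CPM in low animals, and Clspn, a replication checkpoint protein, at 15.8 to 35.4 and 9.46 to 15.2, both without overlap. Ngp, a neutrophil granule protein, was at 9.02 to 222 CPM (median 109) in high and 2.64 to 15.9 CPM (median 11.4) in low animals. Slc4a1, the anion exchanger of red blood cells, was at 0.185 to 85.6 and 0.271 to 2.14 CPM (log2 fold change 5.40 ± 1.32, edgeR adjusted p = 0.69). For Ngp and Slc4a1 the groups overlapped, and the sign for Slc4a1 changed under some alternatives. Serpina1e belongs to a multicopy family whose reads may be split between copies. All 27 tested cell cycle genes were positive in peritumour tissue, with a median log2 fold change of 0.57 against 0.019 for all genes. At an unadjusted p under 0.05, 13 of them were higher, against 3.42% of all genes. In tumours the median was 0.22 and 4 were higher, against 9.98% of all genes. Dlk1, the leading tumour gene, was at 0.124 to 35.6 CPM (median 13.4) in peritumour tissue of high and 0.0594 to 6.07 CPM (median 0.757) in that of low animals, overlapping.

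Blood cell precursor lists had medians above that of all genes in both tissues, but levels were not raised in every high animal. The summed granulocyte markers in peritumour tissue were at 21.8 CPM in F3 and 17.1 in F4, within the range of the low animals. Of 17 tested granulocyte precursor and neutrophil genes, 15 were higher at an unadjusted p under 0.05 in tumours (median log2 fold change 2.14) and 12 of 17 in peritumour tissue (median 1.94). Of the erythroid precursor genes, 12 of 14 were higher in tumours (median 1.76) and 11 of 12 in peritumour tissue. The shares of all genes higher at that p were 9.98% in tumours and 3.42% in peritumour tissue. Mpo, the myeloperoxidase of granulocyte precursors, was at 35.8, 1.25, 38.2, 17.9 and 15.3 CPM in the tumours F5, F3, F6, F4 and F2, and at 1.19 to 11.1 in low tumours. F3, with the second highest Afp, lay in the low range. The summed level of 6 granulocyte markers was 18.9 to 296 CPM (median 203) in high and 12.9 to 63.0 CPM (median 14.7) in low tumours, and 17.1 to 329 (median 177) and 4.80 to 27.9 (median 22.5) in peritumour tissue. That of 4 erythroid markers was 15.5 to 175 CPM (median 113) in high and 9.27 to 24.7 CPM (median 13.5) in low tumours. All of these markers were detected in each of the 10 tumours. F2, F5 and F6 were singled out by their granulocyte precursor markers, so a lower granulocyte median without them follows in part from that choice. Without F2, F5 and F6 the granulocyte median was 1.402 in tumours and -0.50 in peritumour tissue, and the erythroid median was 1.87 and -0.04. Without F4 as well, which leaves F3 alone in the high group, the granulocyte median was -0.54 in tumours and -0.47 in peritumour tissue, and the erythroid median was -1.06 and 0.01. The part of these cells in the other differences was not tested.

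**Figure D4:**
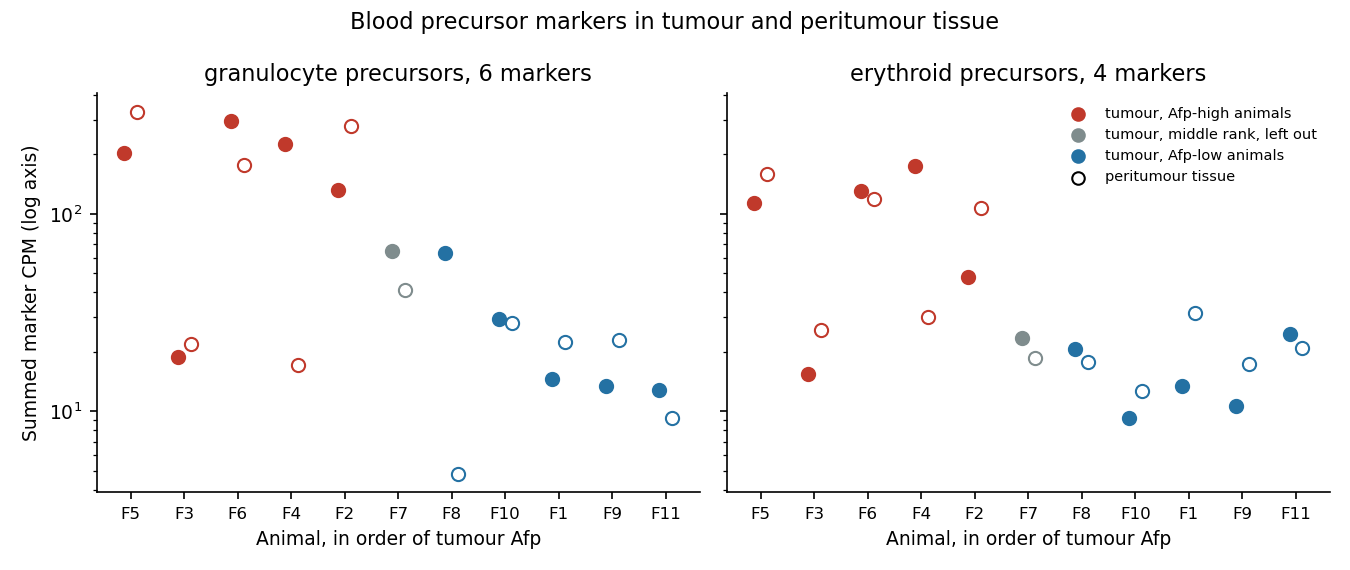
Summed level in CPM, on a log axis, of 6 granulocyte precursor and 4 erythroid precursor markers in tumour and peritumour libraries of Afp-high and Afp-low animals, 1 point per library (n = 5 per group). High animals reach 296 CPM of the granulocyte markers in tumours and 329 CPM in peritumour tissue, and F3 lies near the low animals.

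Whether a difference in tumours exceeded that in the peritumour tissue of the same animals was tested as an interaction of tissue and group. That fit ignored which libraries shared an animal. Interaction values below come from it unless the animal as a replicate block is named. Of 13649 genes, 0 passed in edgeR; 791 (5.8%) had a larger tumour minus peritumour difference in high animals and 356 (2.61%) a smaller one at an unadjusted p under 0.05, 8.4% in all, and DESeq2 called 52 and 2. With the animal as a replicate block, edgeR again called 0, and 1113 and 1347 genes were at an unadjusted p under 0.05. The genes with the smallest p named by rule were Cldn7, Cldn6, St14, Dab2 and Krt7 on the larger side and Spout1, Pxylp1, Them6, Nmral1 and Trmt2a on the smaller side.

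Cldn7 was at 0.779 to 2.78 CPM in the peritumour tissue of high animals and 0.667 to 4.51 CPM in that of low animals. The tumour was higher than its own peritumour tissue in 5 of 5 high animals, by 3.19 ± 1.82 on the log2(CPM + 1) scale, and in 1 of 5 low animals, with a mean of -0.52 ± 0.64 (SD, n = 5 each). The interaction was 4.88 ± 0.83 (SE; edgeR adjusted p = 0.0646). F2rl1 had a like pattern, with 2.80 ± 1.32 in high animals (5 of 5 higher) and -0.32 ± 0.31 in low animals (1 of 5), and an interaction of 3.97 ± 0.64 (edgeR adjusted p = 0.0622); it was below 10 CPM on average over these libraries. Cldn6, a claudin of embryonic epithelia, St14, the membrane protease matriptase, and Krt7 were higher in the tumour in 4 of 5 high and in 0 of 5 low animals, the exception in each case being F4. Dab2, an endocytic adaptor, had an interaction of 1.14 ± 0.28 (edgeR adjusted p = 0.362). Dlk1 tumour minus peritumour differences were 3.39 ± 1.46 in high and -0.45 ± 1.63 in low animals, and the interaction was 4.14 ± 1.49 (edgeR adjusted p = 0.502). With the animal as a replicate block, the interaction was 4.30 ± 0.83 for Cldn7 and 3.71 ± 0.57 for F2rl1 (edgeR adjusted p = 0.175 and 0.065). For Dab2 and Dlk1 the block gave 1.09 ± 0.27 and 4.38 ± 1.43 (edgeR adjusted p = 0.175 and 0.195).

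On the smaller side, Them6 was at 14.7 to 25.8 CPM in the peritumour tissue of low animals and at 30.3 to 37.8 CPM in their tumours. Its tumour minus peritumour difference was 0.90 ± 0.32 in low animals (5 of 5 higher) and 0.10 ± 0.22 in high animals (3 of 5; SD, n = 5 each). Spout1, an RNA methyltransferase of the SPOUT family, differed by 0.80 ± 0.60 (5 of 5) in low animals and -0.17 ± 0.40 (2 of 5) in high animals. Both are cases in which the tumours of low animals stood above their peritumour tissue, and those of high animals did not on average do so by as much. At an unadjusted p under 0.05, 10 of the 17 tested cholangiocyte and progenitor genes were on the larger side, against 5.8% of all genes. Their median interaction was 1.73 against -0.05 for all genes. With the animal as a replicate block the list's median was 1.55, against -0.03 for all genes. Without the block it was 1.09 when F2 was left out and 0.48 without F2, F5 and F6. Over 19 granulocyte genes the median interaction was -0.04, with 1 on the larger side at an unadjusted p under 0.05.

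**Figure D5:**
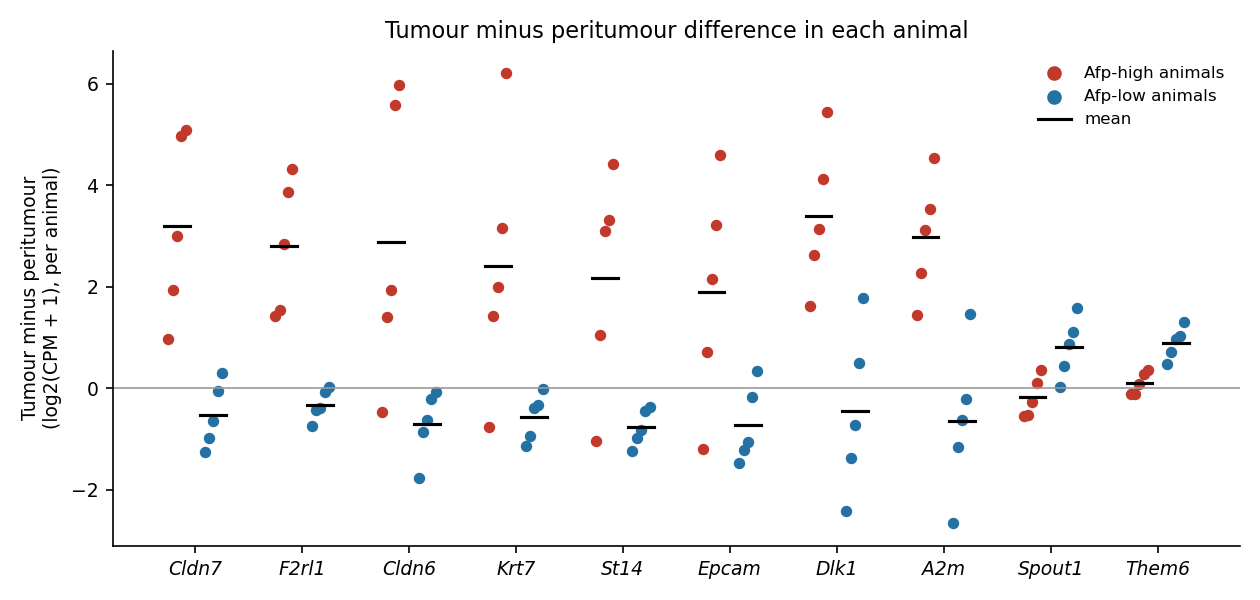
Tumour minus peritumour difference in log2(CPM + 1) for 10 genes, 1 point per animal, Afp-high (red) and Afp-low (blue) animals side by side with the mean as a line (n = 5 each). For Cldn7, F2rl1, Dlk1 and A2m all 5 high animals lie above 0, and for Them6 and Spout1 all 5 low animals do.

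The middle tumour and Tu_M replicates 1 and 2 were split between the groups, whereas Tu_M replicate 3 lay mostly with the low tumours. Over the 280 genes whose groups did not overlap on the higher side, F7 lay at or above the lowest high tumour for 116, at or below the highest low tumour for 122 and between the groups for 42. Tu_M replicates 1, 2 and 3 lay with the high tumours for 101, 115 and 42 of these genes. They lay with the low tumours for 136, 136 and 225. Among peritumour libraries the number was 151, 138, 94, 205 and 101 in the high animals F2, F3, F4, F5 and F6 and 91, 41, 124, 65 and 98 in the low animals F1, F8, F9, F10 and F11, so the groups overlapped. On the lower side (41 genes), F7 lay with the high tumours for 12 and with the low tumours for 23. There Tu_M replicates 1, 2 and 3 lay with the high tumours for 17, 15 and 9 and with the low tumours for 19, 21 and 26.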

How the data were processed

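The authors deposited 1 table of estimated counts and TPM per gene and library, per the file headers; its chromosome accessions are those of GRCm38. The submitters' processing notes name, without roles, RSEM 1.2.12, HISAT2 2.0.4, DESeq2 1.4.5 and Bowtie2 2.2.5. The strand of the libraries is not stated, so overlapping antisense reads cannot be told apart. Of the estimated counts, 8.06% were not whole, and all were rounded. The table holds 18182 genes; 1 line without a gene ID and 9 columns of a group with no sample here were not used, and 26 symbols turned into dates were restored.

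Tests used edgeR 4.0.16 (robust quasi-likelihood, TMM, filterByExpr) in R 4.3.3 with Benjamini-Hochberg adjustment over all genes except Afp in tumours and in the interaction; an SE is the log2 fold change divided by the square root of its F. DESeq2 1.42.0 was an alternative. Scripts in Python 3.11.15 gave CPM, list counts and exact tests. The fits were tested on simulated counts with the same biological coefficient of variation for all genes and no pairing of libraries.

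The named genes are the 5 with the smallest p per direction at a mean of at least 10 CPM, since none passed 0.05, the 5 most and least like Afp, and fixed genes such as Gpc3 and Zhx2. A gene that this rule named is not reported here. The Afp groups and the 42 gene lists (703 of 713 genes found) were chosen with earlier results of these data known. Tumour and peritumour libraries with the same number share a sample code; their deviations correlated at 0.161 to 0.742, above 0.1 in all 10 animals, and a tumour's best match within its Afp group was its own peritumour library in 9 of 10, not in F2 (0.161). No 2 libraries of a group agreed within sampling noise (lowest chi-square per gene 28.9).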

Additional observations from a re-analysis of the deposited data

Results flagged for a closer look

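Among the 90 groups of 5 libraries checked for a sample standing far from the others, 4 held one; chance gives about 1 in 20. Dlk1 in Afp-low tumours was 2.88 CPM in F8, which has the highest Afp of that group, against 0.0588 to 0.502 CPM in the other 4. Lrp6 in Afp-low tumours was 20.7 CPM in F11, which has the lowest Afp, against 45.5 to 55.1 CPM. Ociad2 in Afp-low tumours was 43.2 CPM in F9, against 29.97 to 33.1 CPM. Rad54b in the peritumour tissue of Afp-high animals was 25.3 CPM in F5, the animal with the highest Afp in both tissues, against 11.7 to 13.7 CPM.

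For Ociad2, a mitochondrial and endosomal membrane protein, the tumour was lower than its own peritumour tissue in every Afp-high animal and higher in every Afp-low animal. The interaction of tissue and group was -0.92 ± 0.30 on the log2 scale (edgeR adjusted p = 0.474), and -0.96 with the animal as a replicate block (adjusted p = 0.175), so the difference was tested and did not pass.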

How the results depend on the processing

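In tumours, where edgeR called 0 genes either way, it called 6 higher genes with Afp counted in the adjustment, 3 with library size alone, 3 with the form of sample code as a covariate, 11 in animals of the second form only, 14 without F2, F4, F5 and F6 (which leaves F3 alone, assumed to vary like the low tumours) and 2 with log2 Afp as a number over 11 tumours. DESeq2 called 433 higher and 121 lower in tumours, 33 and 18 in peritumour tissue, and 52 and 2 in the interaction; the cause was not tested. Leaving out single tumours gave 0 to 77 higher calls (77 without F4, 15 without F3, 3 without F2, 1 without F8) and 0 to 4 lower (4 without F4); peritumour counts stayed at 0. In the interaction these were 0 to 14 higher (14 without F4, 1 without F6). The replicate block gave 0 calls, with 1113 larger and 1347 smaller differences at an unadjusted p under 0.05 against 791 and 356 without it, and changed no call. The peritumour Afp difference ran from 1.81 to 4.10 (exact p = 0.0159 without F4, and 0.111 to 0.294 without any other single animal). Of 42 lists, 10 had a peritumour median above that of all genes, and 17 without F2, F4, F5 and F6. As edgeR called no gene, signs are those of uncalled values. They changed under some alternative for 6 named tumour genes (Alb, Igf2, Krt19, Muc13, Myc, Zbtb20) and for Slc4a1 in peritumour tissue. The difference in genes detected per peritumour library, 62.0, ran from -0.55 without F8 to 115. With DESeq2 size factors or no filter on low counts, edgeR's counts were 0 in all 3 comparisons. The biological coefficient of variation was 0.419 in tumours, with 5 animals a group.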

Other observations

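Several of the non-overlapping genes are imprinted, that is, expressed from 1 parental allele. A list of 37 imprinted mouse genes, drawn up after the values were seen and therefore given with no test, had 25 tested members in tumours. Of these, 18 had a positive log2 fold change, and the median was 0.90. At an unadjusted p under 0.05, 10 were higher and 1 (H13) lower, against 9.98% and 4.89% of all genes. The groups did not overlap for 7 of the 25, against 2.13% of all genes without overlap on the higher side. All 7 were higher in Afp-high tumours, namely Peg3, Peg10, Sgce, Mest, Dlk1, Plagl1 and Nnat. In peritumour tissue the median was 0.26 over 24 tested members, of which 6 were higher at an unadjusted p under 0.05, against 3.42% of all genes.

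Sgce, which lies beside Peg10, was at 13.4, 12.0, 45.5, 31.3 and 8.60 CPM in F5, F3, F6, F4 and F2 and at 3.39 to 5.94 CPM in Afp-low tumours. The middle tumour F7 held 36.3 CPM, inside the high range, as it did for Peg10 (log2 fold change of Sgce 1.94 ± 0.48, edgeR adjusted p = 0.178). Plagl1, a zinc finger factor, was at 150 CPM in F2 and at 1.87 to 5.26 CPM in the other 4 high tumours, against 0.941 to 1.78 CPM in low tumours. Igf2 did not share this pattern, as its groups overlapped, and so did those of other tested members such as Cdkn1c and Grb10. The groups also overlapped for Gpc3, which is not on this list.

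Of 24 tested glycolysis and hypoxia genes, 5 were higher and 1 (Pfkp) lower in Afp-high tumours at an unadjusted p under 0.05. The shares of all genes were 9.98% and 4.89%. The list's median of 0.05 was near the 0.065 of all genes. Hk1, a hexokinase that adult hepatocytes hold little of, was at 22.9, 10.8, 17.5, 11.1 and 38.9 CPM in F5, F3, F6, F4 and F2 and at 3.70 to 9.22 CPM in low tumours (log2 fold change 1.13 ± 0.35, edgeR adjusted p = 0.212). Car9, a hypoxia-induced carbonic anhydrase, was at 0.813 to 6.79 CPM in high and 0.396 to 0.690 CPM in low tumours (log2 fold change 2.23 ± 0.55, edgeR adjusted p = 0.177). Cux2, a female-biased repressor of mouse liver, was at 1.21 to 13.5 CPM in high and 0.125 to 0.411 CPM in low tumours (log2 fold change 4.25 ± 0.64, edgeR adjusted p = 0.0572). Of the 21 tested growth hormone dependent and sex-biased genes, which include Cux2, 3 were higher and 0 lower, against 9.98% and 4.89% of all genes. Their median was 0.09. Hk1, Car9 and Cux2 were singled out after their values were seen.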
